A study of Mus musculus with 12 samples.

Results

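The 7 genes described here encode the ubiquitin-editing enzyme A20 (Tnfaip3), its 3 partners of the ABIN family (Tnip1, Tnip2 and Tnip3), the deubiquitinase Cyld, the ubiquitin ligase Pellino-1 (Peli1) and the TNF-inducible protein Tnfaip2. They were chosen by name, with earlier results of these data known, and Tnip3 was chosen for its change of direction over time. Its values are therefore given as a description without a test, and the tests below are of the other 6. Array probes were assigned to a gene by the RefSeq accession printed for the probe, and where a gene had more than 1 probe the brighter one was used. All 7 genes had a probe, 8 probes in all, and all 7 were among the 11095 genes that passed the filter on dim signals. On every one of the 12 arrays the scanner software marked the Cy5 signal of each of the 7 as well above background, so none of them passed the filter through 1 group alone.

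The cells were mouse dendritic cells, cultured for 5 days in 10 ng/ml GM-CSF and 5 ng/ml IL-4 from marrow freed of B and T lymphocytes, and their messenger RNA was measured on arrays. No strain, genotype or age of the mice is given in the labels. The groups were unstimulated cells and cells given lipopolysaccharide (LPS), a component of the Gram-negative bacterial wall, at 100 ng/ml for 1, 6 or 24 h, with 3 arrays each from donors named A, B and C. The RNA of the cells was labelled with Cy5 and hybridised against 1 Cy3-labelled pool of mouse RNA, the Universal mouse reference, so that each value is a log2 ratio of cells to that pool. A ratio of 1 gene cannot be set against the ratio of another gene as an abundance, whereas changes of the ratio between groups can be compared. No unstimulated cells were kept for the later times, so LPS exposure and time in culture cannot be told apart. Cells were collected by repeated pipetting with no sort named.

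Lipopolysaccharide is sensed by Tlr4, whose adaptors recruit ubiquitin ligases such as Traf6 and the Pellino proteins. The ligases build lysine-linked ubiquitin chains and a further complex builds linear ones, and on these chains the kinases that release NF-kB are assembled. A20 and Cyld take such chains apart or restrain their assembly, and the ABIN proteins of Tnip1 and Tnip2 bind both ubiquitin chains and A20. A20 is a textbook negative feedback regulator, since its own gene is a target of NF-kB, and dendritic cells of mice that lack it respond excessively to LPS.

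The promoter windows of the 7 genes were read from RefSeq (build GRCm38.p6), which covers 250 bases before to 50 bases after each annotated start. All 7 genes matched, with 8 windows because Tnfaip3 has 2 annotated starts. They were searched on both strands for the NF-kB core GGNNTTTCC and, by name only, for a longer degenerate NF-kB consensus, which can overlap the core. For the 5 genes with a match, the 160 bases before the start are shown 5′ to 3′ on the strand of the gene, with every match to either NF-kB form in capitals, because these 5 include Tnfaip3 and Tnip3, which were highest at 1 h, as well as Cyld, which did not pass a test at any time. They lie at chr10:19015411-19015570 on the minus strand for the first start of Tnfaip3, at chr11:54962941-54963100 on the minus strand for Tnip1, and on the plus strand at chr6:65590238-65590397 for Tnip3, at chr12:111442501-111442660 for Tnfaip2 and at chr8:88696868-88697027 for Cyld. For Tnip1, Tnfaip2 and Cyld the start of the window lies inside the bounds that RefSeq gives the whole gene, so part of the stretch shown can be transcribed from another start.
Tnfaip3: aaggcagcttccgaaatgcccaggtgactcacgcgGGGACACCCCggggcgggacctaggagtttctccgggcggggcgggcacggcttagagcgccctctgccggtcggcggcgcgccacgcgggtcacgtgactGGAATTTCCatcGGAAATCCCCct
Tnip1: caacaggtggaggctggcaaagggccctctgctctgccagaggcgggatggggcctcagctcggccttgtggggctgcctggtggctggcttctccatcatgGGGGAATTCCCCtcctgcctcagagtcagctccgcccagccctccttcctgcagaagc
Tnip3: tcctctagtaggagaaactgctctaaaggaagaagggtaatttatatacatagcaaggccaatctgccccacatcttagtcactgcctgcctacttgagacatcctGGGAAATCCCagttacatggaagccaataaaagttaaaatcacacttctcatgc
Tnfaip2: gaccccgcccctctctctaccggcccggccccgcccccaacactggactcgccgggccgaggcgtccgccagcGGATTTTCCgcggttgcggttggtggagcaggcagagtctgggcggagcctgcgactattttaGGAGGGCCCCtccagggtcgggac
Cyld: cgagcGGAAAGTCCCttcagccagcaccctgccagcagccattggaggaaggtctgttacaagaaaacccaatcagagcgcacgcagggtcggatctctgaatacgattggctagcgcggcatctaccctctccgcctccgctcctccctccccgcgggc

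The NF-kB core was found in 4 of the 7 genes, and 5.82% of all 32851 windows of the same length hold it. The degenerate consensus was found in 5 of the 7 genes, and 8.46% of all windows hold it. The first start of Tnfaip3 has 2 cores close together, from -24 to -16 and from -12 to -4 relative to the start, and a degenerate match from -125 to -116. Tnip3 has 1 core from -53 to -45, inside a degenerate match that begins 1 base further out at -54. Tnip1 has 3 overlapping degenerate matches between -58 and -47 and no core. Tnfaip2 has a core from -87 to -79 and a degenerate match from -24 to -15, and Cyld has its core from -155 to -147. Neither form was found in the windows of Tnip2 and Peli1 or at the second start of Tnfaip3. The AP-1 motif TGANTCA, held by 7.81% of all windows, was found in Tnfaip3, at -136 to -130. The interferon-response core GAAANNGAA, held by 8.56%, was found in Cyld, at -192 to -184. TATAAA, held by 13.6%, was found in Tnfaip3 from -225 to -220 and in Tnip3 from -120 to -115. These matches describe letters in a window and were not tested for binding.

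**Figure D1:**
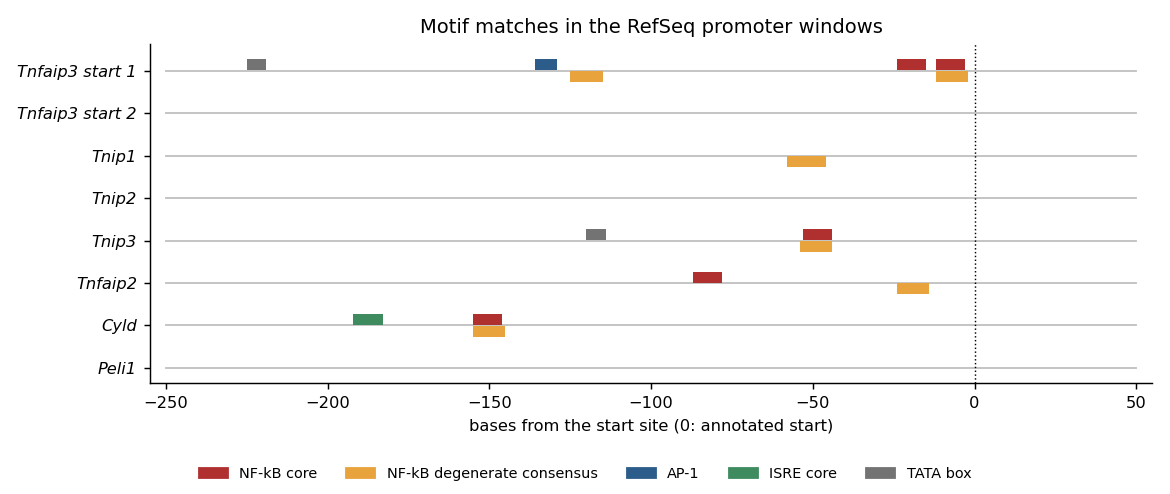
Positions of motif matches in the 8 RefSeq promoter windows, with bases from the annotated start on the horizontal axis and 1 row per start. The NF-kB core appears in Tnfaip3 (2 matches), Tnip3, Tnfaip2 and Cyld, and the rows of Tnip2, Peli1 and the second start of Tnfaip3 hold no match to any motif searched.

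The 12 arrays were spread over 4 slides. All 3 unstimulated arrays were on slide 1 with 1 array of 1 h, and no slide held unstimulated cells together with cells at 6 or 24 h. Values within slides therefore reach 6 and 24 h only by adding the difference from 1 h on another slide, and they have no replicates. On 48.1 to 57.6% of probes per array the sample was well above background, no spot other than controls, which were not counted, was saturated in either channel, and the number of arrays limits the precision. The arrays of donor B at 1 h and 24 h, which share slide 2, stood apart. Their median Cy3 signals above background were 45 and 41 intensity units, against 19.5 to 27.5 on the other arrays. The 1 h array of donor B was the highest of its group for 6 of the 7 genes and the lowest for Cyld, and its 24 h array was the highest for 4 and the lowest for Cyld alone.

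Of the dendritic cell markers looked up, 8 of 10 with a probe were well above background on all 3 unstimulated arrays, Itgax, Cd74 and H2-Ab1 among them. Flt3 was so on 2 of the 3, and Cd209a on none of the 12 arrays. The summed Cy5 signal of the 8 neutrophil markers with a probe was 48800 to 73412 intensity units on unstimulated arrays, 8764 to 22590 at 1 h, 4860 to 14512 at 6 h and 1437 to 14066 at 24 h, with Elane above background on no array. Most of the unstimulated sum was S100a9, at a mean of 53900 units. The log2 ratio of S100a9 changed by -0.86 at 1 h (limma adjusted p = 0.26, not called), -1.74 at 6 h and -2.01 at 24 h. Of the 6 neutrophil markers tested, 3 were called lower at 1 h and all 6 at 6 and at 24 h. Of all genes, 3.39%, 23.6% and 21.4% were called lower at 1, 6 and 24 h. The summed signal of the 6 macrophage or monocyte markers moved the other way, at 9004 to 14350 on unstimulated arrays, 23928 to 31521 at 1 h, 26396 to 34383 at 6 h and 37330 to 55622 at 24 h. Of the 6, 2 were called higher at 1 h and at 6 h, and 3 higher and 2 lower at 24 h. The shares of all genes called higher were 4.05%, 16.1% and 17.9% at 1, 6 and 24 h. The macrophage or monocyte markers did not move together. Cd14 rose by 3.35, 2.84 and 4.54 on the log2 scale at 1, 6 and 24 h, and Fcgr1 was called at none of these times. At 24 h Ly6c1 stood at 1.66 and Adgre1 at 0.94 over unstimulated cells, but Mertk at -0.68 and Mrc1 at -2.92. The summed signal of the 5 T cell markers was low and also moved up, at 118 to 172 units on unstimulated arrays, 162 to 525 at 1 h, 466 to 639 at 6 h and 295 to 701 at 24 h. Cd3e and Lck were above background on all 12 arrays and Cd3d on none. Lck rose by 1.80 on the log2 scale at 6 h (adjusted p = 9.9e-05) and by 1.38 at 24 h (adjusted p = 0.00066), and Cd3e, at 0.55, 0.28 and 0.49 at 1, 6 and 24 h, was not called. B cell markers summed to 225 to 726 units over all groups, with Ms4a1 and Pax5 above background on none. None of the 4 NK cell markers was above background on any unstimulated array. The part of such shifts in the values of the 7 genes was not tested. In RNA from a whole culture, fewer cells of a type and less RNA per cell cannot be told apart.

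Against unstimulated cells, 5 of the 6 tested genes were higher at each of the 3 times, namely Tnfaip3, Tnip1, Tnip2, Tnfaip2 and Peli1. A gene was called at a limma adjusted p under 0.05 over all 11095 genes. Among all genes, 4.05% were called higher at 1 h, 16.1% at 6 h and 17.9% at 24 h, and 3.39%, 23.6% and 21.4% were called lower at the same times. The sixth, Cyld, was called at none of the times. Between the times after LPS fewer were called. At 6 h over 1 h, 3 of the 6 were called (28.2% of all genes, either direction), with Tnip1 and Peli1 higher and Tnfaip3 lower. At 24 h over 6 h, 2 were called (18.4% of all genes), with Tnip2 higher and Peli1 lower. At 24 h over 1 h, 3 were called (28.8% of all genes), with Tnip1 and Tnip2 higher and Tnfaip3 lower. The comparisons with unstimulated cells share those 3 arrays. The median change over all genes lay between -0.09 and 0.04 on the log2 scale in all 6 comparisons.

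**Figure D2:**
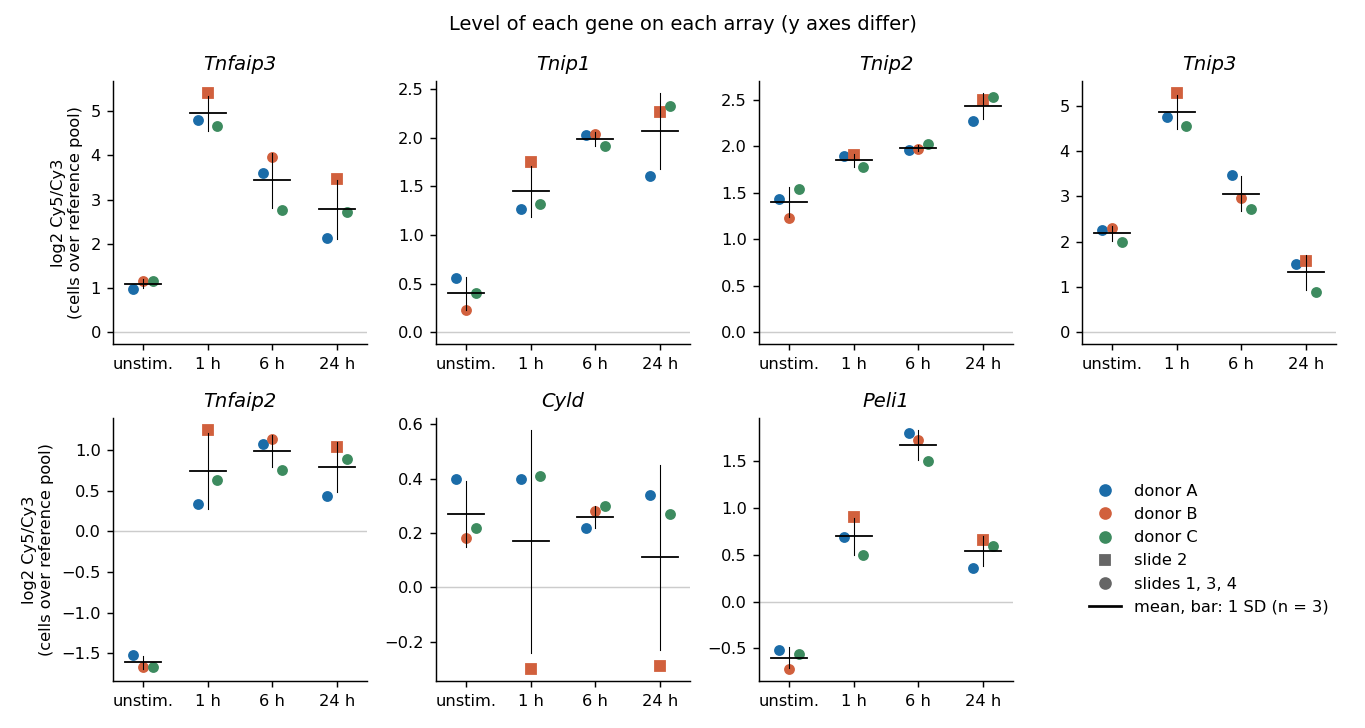
Log2 ratio of cells to the reference pool for each gene on each array, with the group in time order on the horizontal axis, horizontal lines at group means and vertical bars of 1 SD (n = 3). Tnfaip3 and Tnip3 are highest at 1 h, Peli1 is highest at 6 h, Tnip2 at 24 h, and for Cyld the 2 lowest points are both arrays of slide 2.

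Tnfaip3, which encodes A20, had log2 ratios of 0.98, 1.15 and 1.17 in unstimulated cells. They were 4.79, 5.41 and 4.66 at 1 h, 3.59, 3.97 and 2.76 at 6 h, and 2.13, 3.47 and 2.73 at 24 h. Every stimulated array lay above every unstimulated one, every 1 h array lay above every array of 6 and 24 h, and the 6 and 24 h arrays overlapped. The group means were 1.10 ± 0.10, 4.95 ± 0.40, 3.44 ± 0.62 and 2.78 ± 0.67 (SD, n = 3) at 0, 1, 6 and 24 h, and the spread was larger at every time after LPS than before it. The unstimulated arrays shared 1 slide and each later group was on more than 1. A part of LPS and a part of the slides in that spread cannot be told apart. The Cy5 signal above background ran from 33889 to 46405.5 intensity units at 1 h, against 1997 to 2858 units in unstimulated cells.

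At 1 h Tnfaip3 was 3.85 higher than in unstimulated cells on the log2 scale (SE 0.34, limma adjusted p = 1.7e-05), or 14.4-fold, the 13th largest rise of all genes. It was 5.05-fold higher at 6 h (log2 change 2.34, adjusted p = 0.00017) and 3.19-fold higher at 24 h (log2 change 1.67, adjusted p = 0.0018). At 6 h it had fallen by 1.52 on the log2 scale relative to 1 h (adjusted p = 0.0051), and at 24 h by 2.18 relative to 1 h (adjusted p = 0.00051). The difference between 24 h and 6 h was -0.66 with a 95% interval from -1.39 to 0.07 (adjusted p = 0.2). This last difference depended on the slide 2 arrays and was -1.01 without them (adjusted p = 0.03), and it was -1.09 with arrays centred on their median in place of loess (adjusted p = 0.021). Within slides the changes over unstimulated cells were 3.69 at 1 h, 2.81 at 6 h and 1.75 at 24 h, and the change at 6 h over 1 h was smaller, at -0.88.

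Of the 3 ABIN genes, Tnip1 and Tnip2 were higher at every time after LPS than before it, and Tnip3 was highest at 1 h and lowest at 24 h. Tnip1 encodes ABIN1, which binds linear and lysine-linked ubiquitin chains and brings A20 to its targets. Its log2 ratios were 0.56, 0.23 and 0.40 in unstimulated cells, 1.27, 1.75 and 1.32 at 1 h, 2.03, 2.04 and 1.91 at 6 h, and 1.61, 2.26 and 2.33 at 24 h. Every 1 h array lay above every unstimulated array and below every 6 h array, whereas the 24 h arrays overlapped with both 1 h and 6 h, the array of donor A being the low one. Over unstimulated cells Tnip1 was 2.07-fold higher at 1 h (log2 change 1.05, SE 0.19, limma adjusted p = 0.0046), 3.02-fold at 6 h (1.59, adjusted p = 3.6e-05) and 3.19-fold at 24 h (1.67, adjusted p = 3.2e-05). Within slides these 3 changes were 0.88, 1.58 and 1.39, and with slide as a block the 1 h call was lost (adjusted p = 0.12). The further rise at 6 h over 1 h was 0.54 with an adjusted p of 0.048, close to the threshold, and that at 24 h over 1 h was 0.62 (adjusted p = 0.026). The first call was lost in 8 of the 12 refits that left out 1 array (every one without an unstimulated or a 6 h array, and those without 1 h replicate 1 or 3), with slide as a block (0.63, adjusted p = 0.06), with every local background as deposited (0.39, adjusted p = 0.29), with Cy5 alone (0.36, adjusted p = 0.48), with the scanner's processed signals (adjusted p = 0.059) and without the filter on dim probes (adjusted p = 0.062). The second call was lost in 4 of the 12 (without 1 h replicate 1 or 3 or 24 h replicate 2 or 3), with slide as a block (adjusted p = 0.085), with backgrounds as deposited (0.065), with median centring (0.081), with Cy5 alone (0.13) and in a fit of those 2 groups alone (0.087). The difference at 24 h over 6 h was 0.08, with a 95% interval from -0.33 to 0.48.

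Tnip2, which encodes ABIN2, a partner of A20 that also binds and stabilises the kinase Tpl2, had log2 ratios of 1.43, 1.23 and 1.54 in unstimulated cells, 1.89, 1.90 and 1.77 at 1 h, 1.96, 1.97 and 2.02 at 6 h, and 2.27, 2.49 and 2.53 at 24 h. The 4 groups did not overlap, each lying above the one before it. Its largest change was at 24 h, when it stood 2.04-fold above unstimulated cells (log2 change 1.03, SE 0.12, limma adjusted p = 3.3e-05), and it was 0.45 higher at 24 h than at 6 h (adjusted p = 0.019) and 0.58 higher than at 1 h (adjusted p = 0.0028). At 1 h it stood 1.37-fold above them (log2 change 0.45, adjusted p = 0.036) and at 6 h 1.49-fold (0.58, adjusted p = 0.0017). Within slides the changes over unstimulated cells were 0.49, 0.68 and 1.08 at 1, 6 and 24 h. The call at 24 h over unstimulated cells held in every refit run, and the others of Tnip2 did not. With every local background as deposited the change was 0.41 at 1 h (adjusted p = 0.49) and 0.19 at 6 h (adjusted p = 0.66), and with median centring it was 0.28 (adjusted p = 0.62) and 0.71 (adjusted p = 0.051), so that neither was called. Both settings also lost the calls at 24 h over 6 h (0.84, adjusted p = 0.073, and 0.19, adjusted p = 0.69) and at 24 h over 1 h (adjusted p = 0.13 and 0.12). With slide as a block the calls at 1 h (adjusted p = 0.21), at 6 h (0.067) and at 24 h over 6 h (0.16) were lost. The 1 h call was further lost with the scanner's processed signals (adjusted p = 0.091), with Cy5 alone (0.13), in a fit of the 2 groups alone (0.074), without both slide 2 arrays (0.1) and in 5 of the 12 refits without 1 array (unstimulated replicate 1 or 2, 1 h replicate 1 or 2, or 6 h replicate 1). The call at 24 h over 6 h was lost in 4 of those 12 (6 h replicate 1 or 2, or 24 h replicate 2 or 3). At 6 h over 1 h the difference was 0.13, with a 95% interval from -0.12 to 0.38.

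Tnip3 encodes ABIN3, which was described in human cells as an LPS-inducible inhibitor of NF-kB activation. Its log2 ratios were 2.26, 2.29 and 2.00 in unstimulated cells, 4.74, 5.28 and 4.55 at 1 h, 3.48, 2.96 and 2.73 at 6 h, and 1.51, 1.57 and 0.88 at 24 h. No 2 groups overlapped, and the order of the groups from highest to lowest was 1 h, 6 h, unstimulated, 24 h. The group means were 2.18 ± 0.16, 4.86 ± 0.38, 3.06 ± 0.39 and 1.32 ± 0.38 (SD, n = 3) at 0, 1, 6 and 24 h. The ratio of group means was 6.37-fold at 1 h over unstimulated cells and 1.83-fold at 6 h, whereas at 24 h the level was 1.82-fold below that of unstimulated cells. Between 24 h and 1 h the difference was -3.54 on the log2 scale, which placed Tnip3 at 11088 of 11095 genes ranked from the highest change down. Nothing is read from that rank, because Tnip3 was chosen for its course.

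The signal of Tnip3 was low. Cy5 above background was 249, 334.5 and 254.5 intensity units in unstimulated cells, 1896.5, 1871.5 and 1986.5 at 1 h, 742.5, 492.5 and 605 at 6 h, and 150, 142.5 and 83.5 at 24 h. Those signals, taken before the loess step, put the groups in the same order as the ratios. Within the 1 h group the order differed, since donor B had the highest ratio and the lowest signal. Within slides the changes over unstimulated cells were 2.56 at 1 h, 1.24 at 6 h and -1.15 at 24 h. The position at 6 h depended on the background correction, at 0.87 over unstimulated cells as given above, -0.05 with every spot's local background as deposited and 1.62 from signals that the scanner software had processed. Among the 11094 other genes, 23 (0.207%) were called higher at 1 h and lower at 24 h than in unstimulated cells. Since Tnip3 was chosen for this course, nothing is read from that share.

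Cyld encodes a deubiquitinase of lysine-linked and linear chains. Its log2 ratios were 0.40, 0.18 and 0.22 in unstimulated cells, 0.40, -0.30 and 0.41 at 1 h, 0.22, 0.28 and 0.30 at 6 h, and 0.34, -0.29 and 0.27 at 24 h. All 4 groups overlapped, and the 2 arrays below 0 were the slide 2 arrays of donor B. The signal of Cyld was low, at 155.5 to 470.5 intensity units of Cy5 above background over the arrays. The changes over unstimulated cells were -0.10 at 1 h (95% interval -0.53 to 0.34, limma adjusted p = 0.8), 0.00 at 6 h (-0.43 to 0.43, adjusted p = 0.99) and -0.16 at 24 h (-0.59 to 0.27, adjusted p = 0.56). These intervals leave room for a change of either sign that is smaller than the 1 h rise of Tnip1. Without the slide 2 arrays the changes were 0.14 at 1 h, 0.00 at 6 h and 0.04 at 24 h, so that the sign at 1 and 24 h rested on them.

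Cyld was the only one of the 7 genes with a second probe, which was dimmer, at 78 to 167 intensity units. On that probe the log2 ratios were 0.83, 0.51 and 0.23 in unstimulated cells, 0.49, 1.15 and 0.44 at 1 h, 0.55, 0.35 and 0.13 at 6 h, and 0.36, 0.35 and 0.77 at 24 h. The 1 h array of donor B, lowest of its group on the brighter probe, was the highest on the dimmer one. The changes over unstimulated cells on the dimmer probe were 0.17 at 1 h, -0.18 at 6 h and -0.03 at 24 h, so the probes differed in sign at 1 h.

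**Figure D3:**
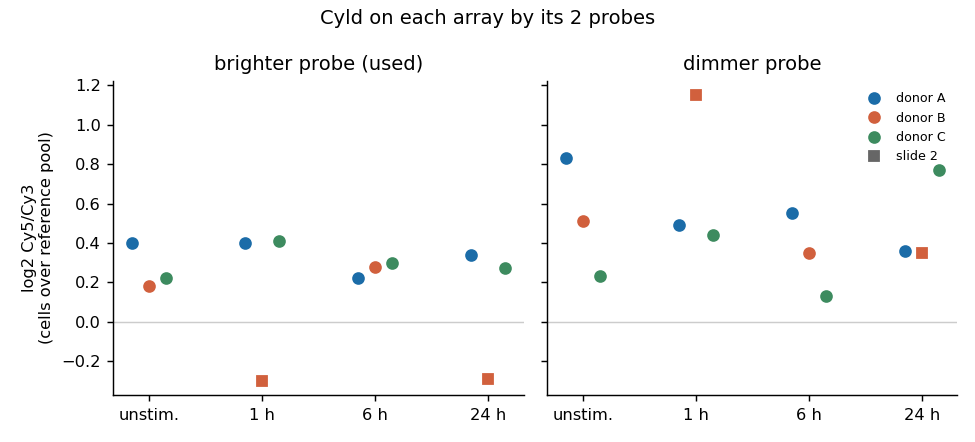
Log2 ratio of cells to the reference pool for the 2 Cyld probes on each array, by group in time order, with squares for arrays of slide 2. On the brighter probe both squares lie below 0, at -0.30 and -0.29, and on the dimmer probe they lie at 1.15 and 0.35.

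Peli1 encodes Pellino-1, a ubiquitin ligase of Toll-like receptor and interleukin-1 receptor signalling. Its log2 ratios were -0.52, -0.72 and -0.56 in unstimulated cells, 0.69, 0.91 and 0.50 at 1 h, 1.80, 1.73 and 1.5 at 6 h, and 0.36, 0.66 and 0.60 at 24 h. The 6 h arrays lay above all others, the 1 and 24 h arrays overlapped, and both lay above every unstimulated array. Over unstimulated cells Peli1 was 2.46-fold higher at 1 h (log2 change 1.30, SE 0.14, limma adjusted p = 8.2e-05), 4.85-fold at 6 h (2.28, adjusted p = 1.6e-07) and 2.2-fold at 24 h (1.14, adjusted p = 5.3e-05). At 6 h it was 0.98 higher than at 1 h (adjusted p = 0.00022), and at 24 h it had fallen by 1.14 relative to 6 h (adjusted p = 0.00022). Between 24 h and 1 h the difference was -0.16, with a 95% interval from -0.46 to 0.14. Within slides the changes over unstimulated cells were 1.29, 2.56 and 1.05 at 1, 6 and 24 h. Its related ligase Peli2 was 0.92 higher at 1 h than in unstimulated cells on the log2 scale (adjusted p = 0.0039) and 0.08 above them at both 6 h (adjusted p = 0.74) and 24 h (adjusted p = 0.73). With slide as a block Peli2 was not called at 1 h. Peli3, at 0.35, 0.09 and 0.45 at 1, 6 and 24 h, was called at none of these times.

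Tnfaip2 shares its naming history with Tnfaip3 as a TNF-inducible gene, but its product is a protein related to exocyst subunits that acts in membrane protrusions and is no ubiquitin enzyme. Its log2 ratios were -1.52, -1.66 and -1.66 in unstimulated cells, 0.34, 1.25 and 0.63 at 1 h, 1.07, 1.13 and 0.75 at 6 h, and 0.44, 1.04 and 0.89 at 24 h. The 3 stimulated groups overlapped one another and lay wholly above the unstimulated arrays. Over unstimulated cells Tnfaip2 was 5.12-fold higher at 1 h (log2 change 2.35, SE 0.22, limma adjusted p = 2.4e-05), 6.06-fold at 6 h (2.60, adjusted p = 2.2e-06) and 5.3-fold at 24 h (2.41, adjusted p = 6.2e-06). Between stimulated times the differences were 0.24 at 6 h over 1 h (95% interval -0.22 to 0.71), -0.19 at 24 h over 6 h (-0.66 to 0.27) and 0.05 at 24 h over 1 h (-0.42 to 0.52), none of them called. Without the slide 2 arrays the first of these was 0.50 and was called (adjusted p = 0.044). Within slides the changes over unstimulated cells were 1.95, 2.43 and 1.75 at 1, 6 and 24 h.

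**Figure D4:**
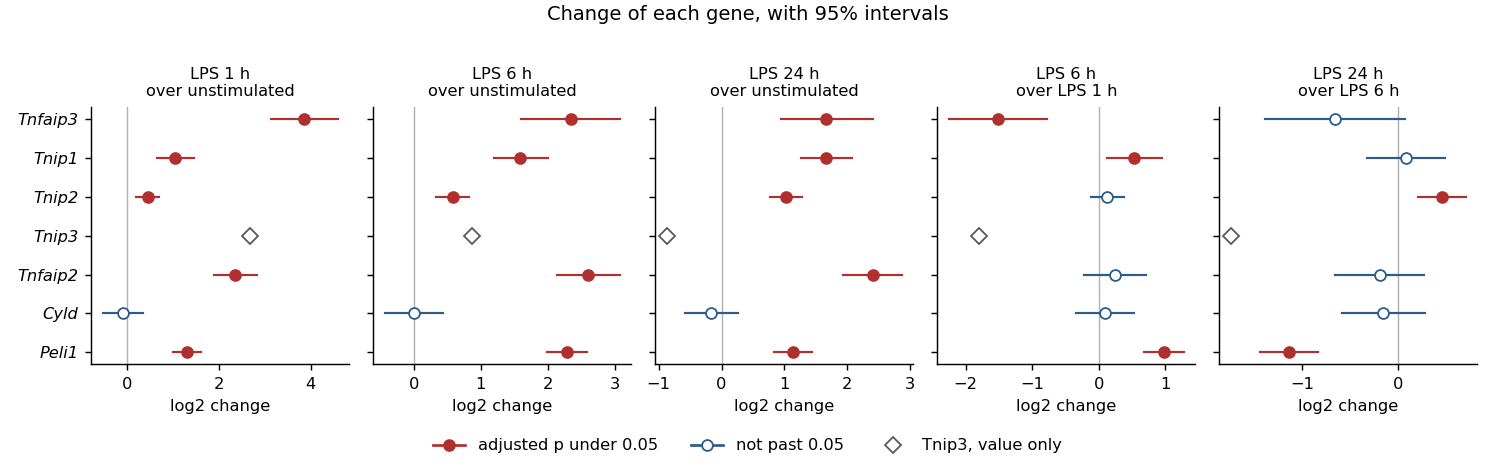
Log2 change of each gene in 5 comparisons, with 95% intervals for the 6 genes that were tested and the value alone for Tnip3. Filled points passed an adjusted p of 0.05. Against unstimulated cells 5 genes lie to the right of 0 with their intervals at every time, whereas Tnip3 moves from 2.67 at 1 h to 0.87 at 6 h and -0.87 at 24 h.

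For each of the 7 genes, the other genes whose log2 ratios ran most alike over the 12 arrays were looked up by Pearson's r, among 11095 genes. The arrays share their slides and the reference pool, and these r values are the highest of many, so they are given as a description. Closest to Tnfaip3 were Nfkbiz (r = 0.988), which encodes a nuclear partner of NF-kB, Tgif1 (0.976) and Serpinb2 (0.975). Closest to Tnip1 were Itga5 (0.979), Ehd1 (0.978) and Gadd45b (0.977). Closest to Tnip2 were Grina (0.997), Ninj1 (0.977) and Csf2rb2 (0.976), a different set from that of Tnip1 among the first 3 named. Closest to Tnip3 were Rasgef1b (0.966), Dcun1d3 (0.951) and Bcl2l11 (0.939), the gene of the cell death protein Bim. These 3 were, as Tnip3 was, higher at 1 h than in unstimulated cells, by 3.84, 2.79 and 1.35 on the log2 scale, and stood at -0.43, -0.20 and -0.81 at 24 h. A like course follows from their choice by likeness to Tnip3. Closest to Tnfaip2 were the cytokine gene Il6 (0.991), the C-type lectin gene Clec4e (0.986) and Inhba (0.986), which encodes an activin subunit. Closest to Peli1 were Clic4 (0.982), the RNA sensor gene Ifih1 (0.981) and the chemokine gene Cxcl10 (0.973). For Cyld, which was called in no comparison, the highest r values were lower, at 0.932 for Med18, 0.868 for Rida and 0.855 for Kdm1b.

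A list of 47 other genes of the ubiquitin pathway was set beside the 7. It was drawn up by function, with earlier results of these data known. Of these 47 genes, 45 had a probe and were tested, and Itch and Cblb were not matched to one. At 1 h 7 of the 45 were called higher and 1 lower than in unstimulated cells, with a median log2 change of 0.05, against 4.05% higher, 3.39% lower and a median of 0.02 over all genes. At 6 h 22 were higher and 3 lower with a median of 0.35, against 16.1%, 23.6% and -0.04 over all genes. At 24 h 20 were higher and 3 lower with a median of 0.38, against 17.9%, 21.4% and 0.02. With slide as a block limma called 0 genes of the list at 1 h (12 had an unadjusted p under 0.05), and 225 of all 11095 genes. With every local background as deposited, 2 of the list and 243 of all genes were called. Without these changes 825 of all genes were called at 1 h.

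Within the list, 1 of the 3 subunits of the linear ubiquitin assembly complex was called, at 6 and 24 h. Of all genes, 16.1% and 17.9% were called higher at those times and 23.6% and 21.4% lower. The catalytic subunit of the complex, Rnf31 (HOIP), was 0.05 above unstimulated cells at 1 h (adjusted p = 0.88). It rose by 1.48 on the log2 scale at 6 h (adjusted p = 1.7e-05) and was still 1.13 higher at 24 h (adjusted p = 0.00014). The other subunits, Rbck1 at 0.22, 0.21 and 0.22 and Sharpin at -0.04, 0.11 and 0.17 at 1, 6 and 24 h, were not called. Otulin, the deubiquitinase of linear chains, was not called either, at -0.10, -0.26 and -0.23.

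Among the 10 ubiquitin ligases and TRAF adaptors tested, 3 were called higher at 1 h, 5 at 6 h and 6 at 24 h, against 4.05%, 16.1% and 17.9% of all genes, and limma called 0 lower at these times (1 had an unadjusted p under 0.05, at 24 h), against 3.39%, 23.6% and 21.4%. Traf1, an adaptor without ligase activity, was 1.10, 1.95 and 2.02 higher than in unstimulated cells at 1, 6 and 24 h, and Birc3, a ligase of the IAP family, was 0.75, 1.15 and 1.00 higher, both called at every time. Traf6, the ligase that acts next to Tlr4, was 0.09 higher at 1 h and 0.41 at 6 h, neither called, and rose by 0.55 at 24 h (adjusted p = 0.018). Of the ubiquitin gene Ubb and 5 genes of the E2 (ubiquitin-conjugating) family, 2 were called higher at 24 h and 1 lower. Ubb rose by 0.38 at 6 h (adjusted p = 0.04) and by 0.90 at 24 h (adjusted p = 0.00023), Ube2v1 rose by 0.50 at 24 h (adjusted p = 0.0035), and Ube2d3 fell by 0.49 at 24 h (adjusted p = 0.036). Ube2n, Ube2d1 and Ube2l3 were called at none of the 3 times, with changes between -0.14 and 0.35.

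The largest change of the list was that of Usp18. Of the 10 genes of deubiquitinases and the Cyld adaptor Spata2, limma called 0 at 1 h (2 had an unadjusted p under 0.05, both lower), and 4 were higher and 2 lower at 6 h and again at 24 h, against 16.1% higher and 23.6% lower of all genes at 6 h and 17.9% and 21.4% at 24 h. The 2 of 10 that were lower are a share near that of all genes. Usp18, which removes the ubiquitin-like protein Isg15 and is known as an interferon-induced gene, was at -0.09 at 1 h (adjusted p = 0.86) but 4.37 higher than in unstimulated cells at 6 h (adjusted p = 1.8e-07) and 2.68 higher at 24 h (adjusted p = 1.6e-05). Usp25 was at -0.06, 1.91 and 0.36 at the same times, called at 6 and 24 h. Usp10 fell by 0.96 at 6 h (adjusted p = 0.00037) and by 0.67 at 24 h (adjusted p = 0.0039), and Brcc3 fell by 0.51 at both times (adjusted p = 0.0046 at each).

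Of the 15 kinase subunits and adaptors that bind ubiquitin or work beside it, 3 were called higher and 1 lower at 1 h, 10 higher and 1 lower at 6 h, and 6 higher at 24 h. Of all genes 4.05%, 16.1% and 17.9% were called higher at these times and 3.39%, 23.6% and 21.4% lower. Sqstm1, the autophagy receptor p62, was 1.10, 1.69 and 2.06 higher than in unstimulated cells at 1, 6 and 24 h, Ripk2 was 0.78, 1.10 and 0.79 higher and Tank 0.67, 1.22 and 0.80 higher, each called at all 3 times. Optn was 0.57, 1.21 and 0.93 higher and Tbk1 0.32, 1.03 and 0.75, both called at 6 and 24 h. Tax1bp1, which works with A20, was 0.37, 0.60 and 1.30 higher and called at 6 and 24 h. Tab2 at 0.57, 1.05 and 0.48 and Azi2 at -0.16, 1.25 and 0.44 were called at 6 h alone of these times, and Tab1 fell by 0.60 at 1 h (adjusted p = 0.027) and by 0.45 at 6 h (adjusted p = 0.027). The kinase genes Map3k7, Chuk and Ripk1 and the IKK subunit gene Ikbkg were not called at any of the 3 times, with changes between -0.33 and 0.24. The IKK kinase gene Ikbkb, at 0.02, 0.44 and 0.38, was called higher at 6 h (limma adjusted p = 0.033). So was Tab3, at 0.14, 0.42 and 0.24 (adjusted p = 0.047).

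**Figure D5:**
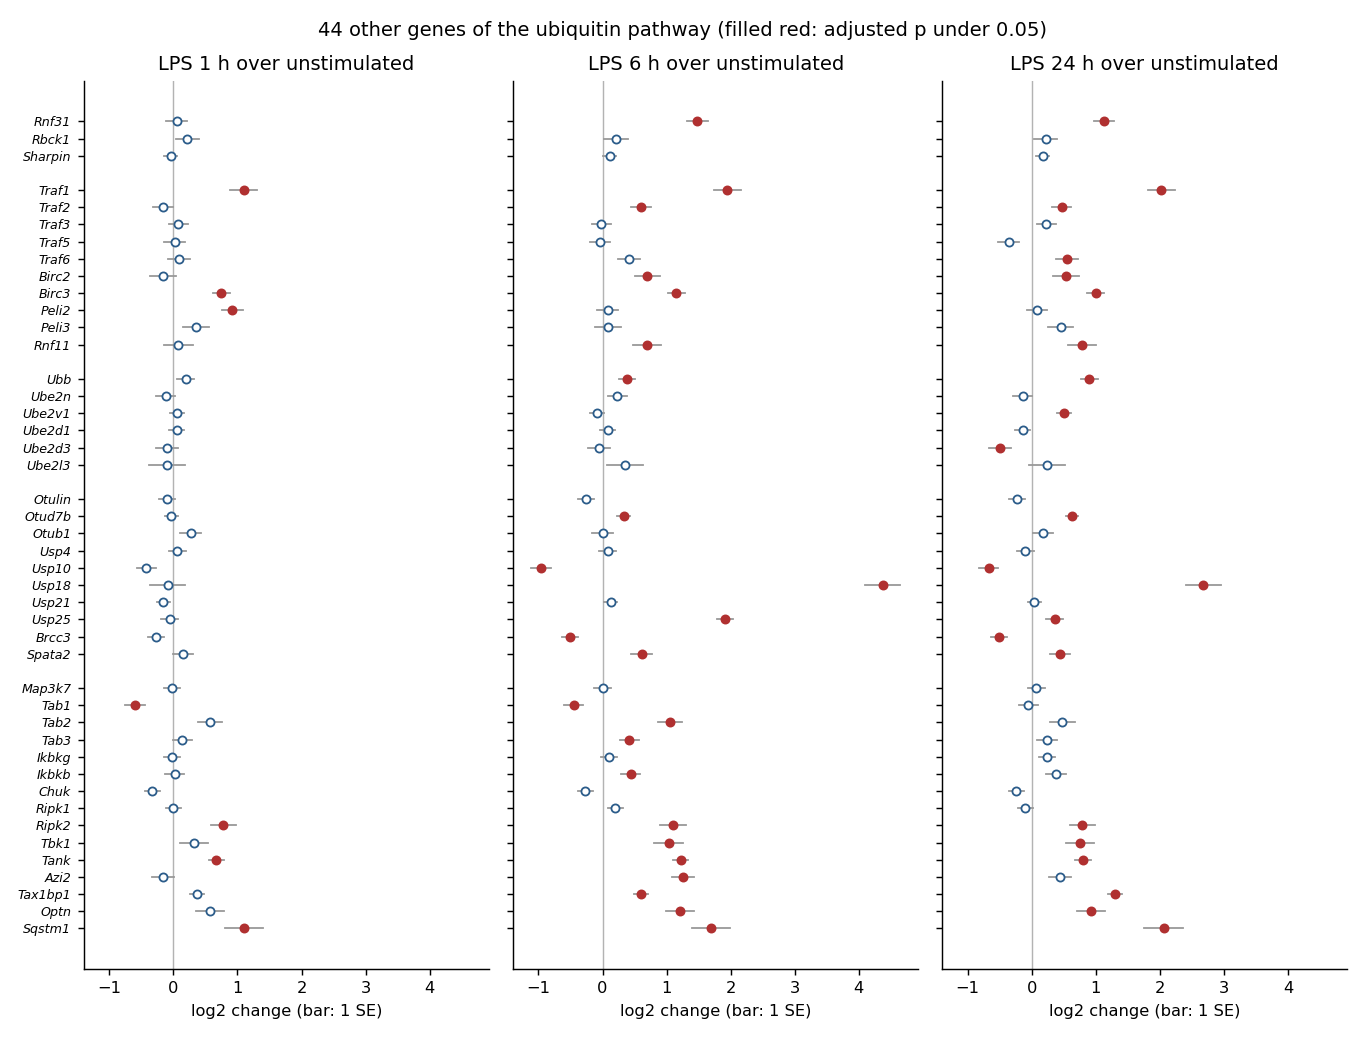
Log2 change over unstimulated cells at 1, 6 and 24 h for 44 of the 45 tested genes of the ubiquitin list, in the order of its 5 sub-lists with a gap between them, bars of 1 SE and filled points for adjusted p under 0.05. Of these points 7 are filled at 1 h, 24 at 6 h and 22 at 24 h, and Usp18 lies furthest from 0, at 4.37 at 6 h.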

How the data were processed

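Two-colour arrays of 12 samples (4 groups of 3) were read. Per the file headers, the scanner output deposited for each sample comes from Agilent Feature Extraction 10.7.3.1 (protocol GE2_107_Sep09) and holds median spot and background intensity per channel, not normalized. The deposited value table holds log2 ratios of sample to reference, made by the authors with limma per the submitters' processing notes (version not given in the sources used here). The log2 ratios computed here correlated with it at 0.9992 or more on every array.

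In R 4.3.3 with limma 3.58.1, signals were corrected by normexp (offset 50) and loess (span 0.3, 1639 control spots at weight 0). Local backgrounds marked as outliers were replaced by the array median and feature outliers (92 to 161 spots) left out, because spot minus background reached -50238 on 1 array. Of 41174 probes, 21750 were well above background on all 3 arrays of a group. Taking the brightest probe of each gene left 11095 genes. A model with 1 mean per group (8 residual degrees of freedom), empirical Bayes and Benjamini-Hochberg adjustment gave two-sided tests, and it was tested on simulated data. Median spot signals were used, where the plan had foreseen means. The 14 missing values in the fitted table left those arrays out for those genes.

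The 7 genes, the lists and the motifs were chosen with earlier results of these data known. Named are the 7 genes, list genes called with a change of at least 2-fold over unstimulated cells, the first examples of each sub-list by size, and the 3 genes most alike to each of the 7. Traf6, Peli2, Peli3, Otulin, Rbck1, Sharpin, Ubb, Ube2v1, Ube2d3, Ube2n, Ube2d1, Ube2l3, Usp10, Brcc3, Tab1, Tab3, Map3k7, Chuk, Ripk1, Ikbkb and Ikbkg were named after their values were seen. Of the list, 1 gene enters the counts but is not reported here.

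Alternatives were other background corrections and scalings, the deposited ratios, other filters, slide or donor as a block, other probes and each array left out. Leaving out both slide 2 arrays was added after seeing the data. The labels give the letters A, B and C as donors. Deviations from group means correlated between arrays of the same letter with r from -0.21 to 0.58 (median 0.11), and 9 of the 18 pairs exceeded 0.1. Between arrays of different letters and groups r ran from -0.53 to 0.41 (median -0.013), and 8 of 36 pairs exceeded 0.1. Some pairs of the same letter shared a slide, among them donor B at 1 and 24 h on slide 2.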

Additional observations from a re-analysis of the deposited data

How the results depend on the processing

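The number of arrays limits the precision. All 7 genes were well above background on every array. The calls of Tnfaip3, Tnfaip2 and Peli1 over unstimulated cells held in every refit run, leave-one-out included. With donor as a replicate block, 5, 5 and 5 of the 6 tested genes were called at 1, 6 and 24 h over unstimulated cells, 3 at 6 h over 1 h, 2 at 24 h over 6 h and 3 at 24 h over 1 h, as without it, and 9, 26 and 24 genes of the ubiquitin list were called. Of all genes this block called 1128, 4699 and 4740 at 1, 6 and 24 h over unstimulated cells, and it changed no call of the 6. With slide as a fixed block, 3 of the 6 genes were called at 1 h and 1 at 24 h over 6 h, and 0, 16 and 14 list genes at 1, 6 and 24 h, against 8, 25 and 23. Of all 11095 genes, 225, 1956 and 1761 were called with that block, against 825, 4396 and 4367 without it. With every local background as deposited, 4 of the 6 genes were called at 1 h and at 6 h over unstimulated cells (Tnip2 lost), 2 at 6 h over 1 h (Tnip1 lost), 1 gene was called at 24 h over 6 h and 1 at 24 h over 1 h, and 2 and 15 list genes at 1 and 6 h. Of all genes, 243 and 2438 were then called at 1 and 6 h. With arrays centred on their medians, 1 of the 6 was called at 24 h over 1 h, and 1 and 10 list genes at 1 and 24 h. Of all genes, this centring called 225 and 2335 at 1 and 24 h. That scaling moved the median of all genes to -0.123 at 1 h, -0.11 at 24 h, 0.131 at 6 h over 1 h and -0.182 at 24 h over 6 h, and the share of calls that were higher to 79.6%, 67.3% and 35.6% at 1, 6 and 24 h, against 54.4%, 40.6% and 45.6%. The scanner's processed signals gave 5 list genes at 1 h, and so did leaving out slide 2, with 669 and 474 of all genes called. Leaving out 1 array of the groups compared gave 1 to 2 of the 6 genes at 24 h over 6 h (1 without 6 h replicate 1 or 2 or 24 h replicate 3) and 4 to 8 list genes at 1 h (4 without 1 h replicate 1, 5 without replicate 2 of that group or unstimulated replicate 1 or 2), and 9 without 6 h replicate 3. Among the 6 tested genes, signs turned only for differences that none of these fits called, and Tnip3 turned at 6 h, as given above. For Cyld these were 0.14, 0.02, 0.08, -0.11 and 0.06 with the slide block (1, 6 and 24 h, 6 over 1 h, 24 over 6 h), 0.14, 0.04, -0.14 and 0.04 without slide 2 (1 h, 24 h, 6 over 1 h, 24 over 6 h), 0.00 without background subtraction, 0.09 with median centring and 0.01 with Cy5 alone at 6 h, 0.12 with Cy5 alone at 24 over 1 h, and 0.17, -0.35 and 0.15 on the dimmer probe (1 h, 6 over 1 h, 24 over 6 h). Leaving out 1 array gave Cyld -0.22 to 0.14, -0.04 to 0.06 and -0.27 to 0.04 at 1, 6 and 24 h, -0.14 to 0.21 at 6 over 1 h, -0.27 to 0.04 at 24 over 6 h and -0.30 to 0.14 at 24 over 1 h. Tnip2 at 6 over 1 h was -0.22 with backgrounds as deposited. Tnip1 at 24 over 6 h was -0.25 with median centring, -0.01 with the slide block, -0.02 without slide 2 and -0.05 to 0.30 leaving out 1 array, and Tnfaip2 at 24 over 1 h was -0.15 to 0.31. The causes were not tested. Differences within slides have no replicates and gave no counts of calls.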
